A study of Mus musculus with 15 samples.

Results

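Trp53, the gene for the transcription factor p53, and 9 of its direct target genes were followed across mouse mammary tumours that are all labelled p53-null. The 10 genes were taken by their symbols from a table of 17271 genes, and all 10 were found in it. The targets fall into 4 roles: feedback on p53 (Mdm2), control of the cell cycle (Cdkn1a, Ccng1), cell death (Bax, Bbc3, Trp53inp1, Zmat3) and restraint of growth signalling (Phlda3, Sesn2).

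In cells with intact p53, DNA damage and other stresses stabilise the protein, which then binds its motif near target genes and raises their transcription. Mdm2, itself a target, marks p53 for degradation and so closes a feedback loop. Each of these targets also has other activators, so a gene of this list can be expressed without p53.

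The study measured polyadenylated RNA in bulk from 15 mammary tumours of Balbc mice. Every sample carries the genotype label p53-NULL, so there is no group with p53 to compare with. They come from 4 tumour models: 2208L is represented by 8 samples, 2151R by 4, 2225L by 2 and T11 by 1. Titles of 2208L mark 4 samples as PBS, 3 as 3day nt and 1 with the library prefix ROSEN only, and one of the 2225L samples is titled T-Vivo. Each title ends with a library number whose prefix is CP, except for 1 library of 2225L and 1 of 2208L with the prefix ROSEN. Within 2151R, replicates 3 and 4 are titled NT, and replicates 1 and 2 each carry a different mark in that place. This group thus mixes samples of different titles, and whether the marks stand for treatments is not stated. Every comparison with 2151R in the fit of all samples includes replicates 1 and 2. The meaning of CP, ROSEN, NT and the other marks is not stated. The deleted allele, the host tissue in the tumours and whether the samples of a model came from separate animals are not stated either, so p-values measure only the spread between these samples.

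Values are log2 expression centred for each gene. A difference of 1 between samples is thus a doubling of that gene's value, including any offset added before the logarithm, which is not stated. Levels of different genes cannot be ranked, and the labelled tissue cannot be checked by the absence of a marker. Counts were not part of the table, and the depth behind each value is unknown. Median values over all genes ran from -0.29 to 0.10 across the samples. The models also differed in markers of cell types, summarised as the mean over a list after each marker was set to a mean of 0 across the 15 samples. The mean of 5 epithelial markers ran from -2.20 to -1.22 in 2151R, from 3.64 to 3.87 in 2225L and from 0.16 to 1.75 in 2208L, and was -6.98 in T11. The mean of 6 leukocyte markers ran from 0.36 to 0.79 in 2151R, from -1.13 to -0.15 in 2225L and from -0.88 to 0.19 in 2208L, and was 1.26 in T11. Between 2151R and 2208L, 4 of the 6 leukocyte, 2 of 5 fibroblast, 4 of 4 endothelial and 1 of 4 adipocyte markers were called higher. Of the epithelial markers, 4 of 5 were called lower and 1 higher. Among all genes, 26.1% were called higher and 22.7% lower. The 5 skeletal muscle markers had 0 calls. The median difference was 4.1 for the adipocyte and -3.2 for the skeletal muscle markers. The part of these markers in the differences reported here was not tested. In bulk tumour, fewer cells of a type and less RNA per cell cannot be told apart.

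The p53 motif is built from a decamer, a unit of 10 bases that reads as the same pattern on both strands, and a full site holds 2 such decamers with up to 13 bases between them. The 250 bases before each gene start in RefSeq (GRCm38.p6, the reference assembly that mm10 stands for) were searched for it, since these are the genes through which p53 is known to act. The table holds 11 windows for 8 of the 10 genes, and 5 of the 11 windows, each of a different gene, held the decamer, beside 7.13% of 32851 windows of all genes. The sequences are shown 5′ to 3′ on the gene's strand, with the decamers in capitals.
Trp53 at chr11:69580269-69580308, plus strand: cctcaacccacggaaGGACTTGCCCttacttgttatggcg
Cdkn1a at chr17:29090891-29090952, plus strand: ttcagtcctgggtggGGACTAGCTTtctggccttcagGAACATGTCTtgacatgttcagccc
Mdm2 at chr10:117710920-117710959, minus strand: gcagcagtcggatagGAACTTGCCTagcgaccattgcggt
Bax at chr7:45467075-45467114, minus strand: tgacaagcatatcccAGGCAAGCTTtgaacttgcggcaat
Ccng1 at chr11:40755447-40755486, minus strand: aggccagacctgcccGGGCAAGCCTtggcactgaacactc

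Of these windows only that of Cdkn1a held 2 decamers, 12 bases apart and 73 bases before the first of the 2 starts listed for the gene, which lie 2790 bases from each other. A full site was found in 0.0639% of all windows. A match is a run of letters and not a measured binding site, and a window without one says nothing about sites further away.

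Between 2151R and 2208L, Sesn2, Zmat3 and Mdm2 were higher in 2151R, by 1.51, 1.09 and 0.48 log2 units, and Bbc3 and Trp53inp1 were lower, with differences of -1.65 and -1.26. With limma and Benjamini-Hochberg adjustment over all genes at 0.05, 5 of the 10 genes were thus called, beside 48.8% of all genes. By direction, 3 were called higher, beside 26.1% of all genes, and 2 lower, beside 22.7%. The samples of the 2 models did not overlap for 6 of the 10 genes, the 5 called and Cdkn1a, beside 38.8% of all genes. The shares among the 10 genes were close to those of the whole table for the calls and above it for groups without overlap, and with 10 genes each gene weighs 10% of its share. The median difference was 0.13 for the 10 genes and 0.10 for all genes.

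Between 2225L and 2208L, Phlda3 and Sesn2 were higher in 2225L, by 1.24 and 0.999, and Mdm2 was lower, with a difference of -0.69. These 3 of 10 calls compare with 32.9% of all genes, the 2 higher with 15.6% and the 1 lower with 17.3%. Between 2225L and 2151R, Bbc3 (2.04), Phlda3 (1.89) and Trp53inp1 (1.20) were higher in 2225L, and Zmat3 (-1.63), Cdkn1a (-1.58) and Mdm2 (-1.17) were lower. These 6 of 10 calls compare with 48.6% of all genes, the 3 higher with 22.8% and the 3 lower with 25.8%. The 3 comparisons share their samples, so they are not separate evidence. No comparison moved all the called targets one way.

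**Figure D1:**
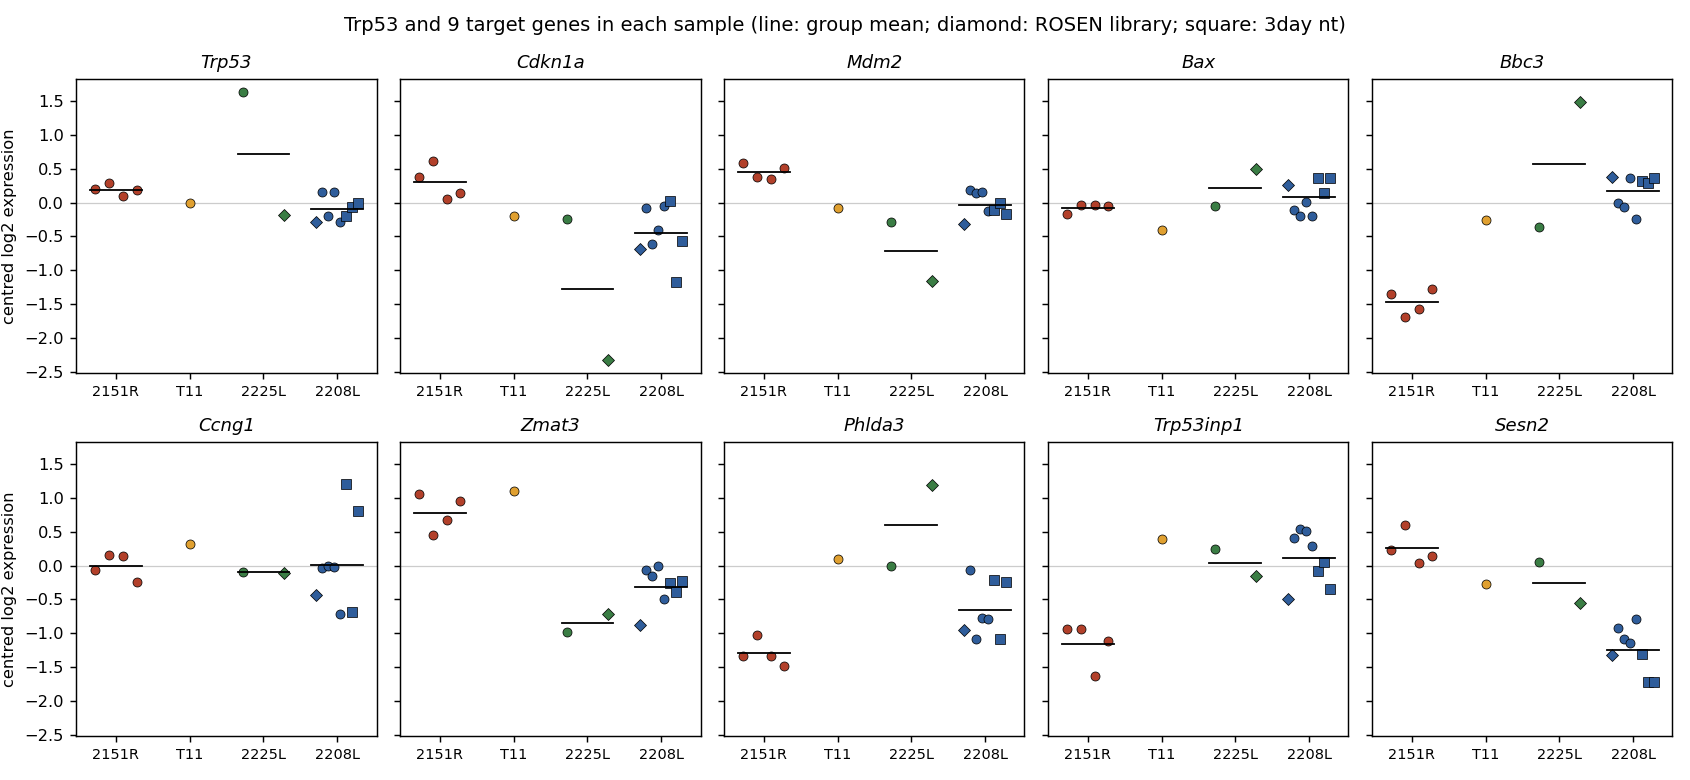
Centred log2 expression (vertical axis) of the 10 genes in each of the 15 samples, by tumour model (horizontal axis), with a line at each group's mean, diamonds for libraries with the ROSEN prefix and squares for 3day nt samples. The CP library of 2225L stands alone at Trp53 with 1.63, and the ROSEN library of 2225L is the lowest sample for Cdkn1a (-2.32) and Mdm2 (-1.16) and the highest for Bbc3 (1.49) and Phlda3 (1.20).

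**Figure D2:**
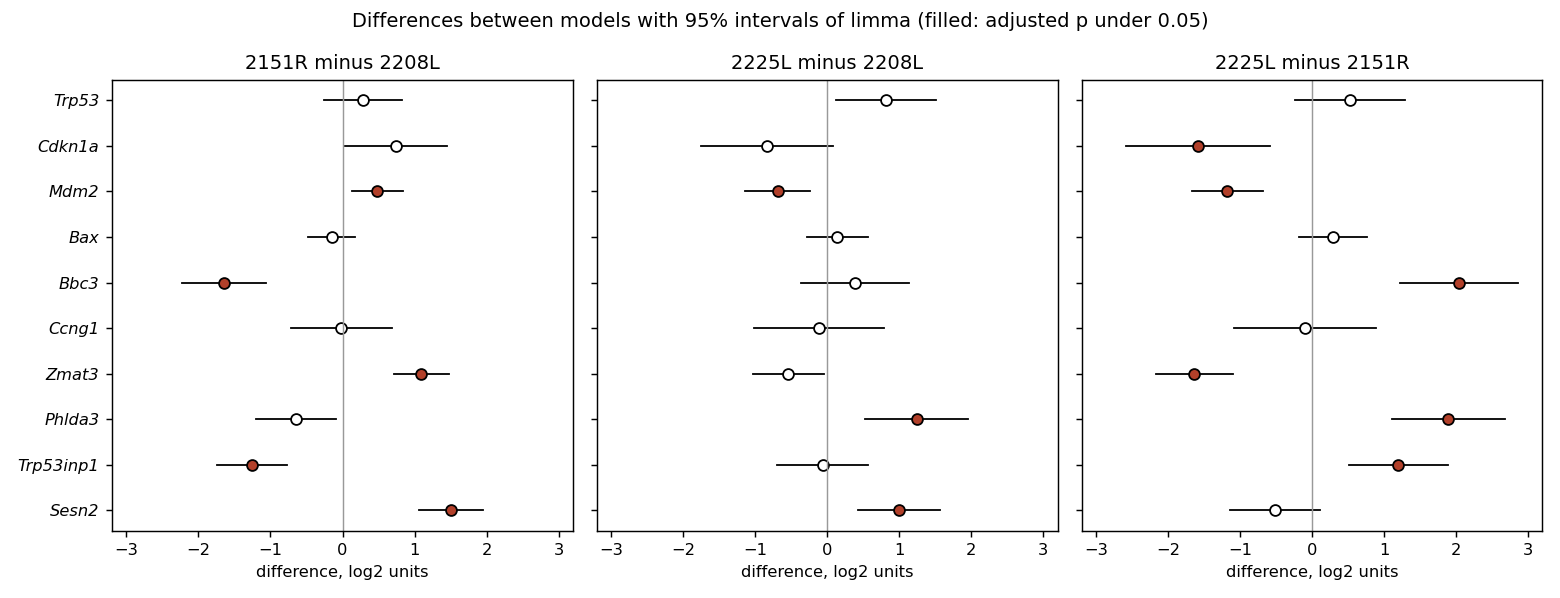
Difference in centred log2 expression between models (horizontal axis, log2 units) for the 10 genes, with 95% confidence intervals from limma and filled points for adjusted p under 0.05. Called genes lie on both sides of 0 in each of the 3 comparisons, with 5, 3 and 6 of 10 called.

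Trp53 itself lies at chr11:69580348-69591873 and was close to level in 14 of the 15 samples. In 2151R its values were 0.20, 0.29, 0.09 and 0.19. In 2208L they ran from -0.29 to 0.16 with a median of -0.13, and T11 had -0.01. The CP library of 2225L had 1.63 and its ROSEN library -0.18, so the high value was in 1 sample, and the next highest of all samples was 0.29. The ROSEN library lay within the range of 2208L.

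The Trp53 difference between 2151R (0.19 ± 0.08, SD, n = 4) and 2208L (-0.09 ± 0.18, SD, n = 8) was 0.28 (SE 0.25, limma adjusted p = 0.367). This is from the fit of all samples, so the wide spread of the 2225L pair counts in its SE and p-value. The missed threshold therefore does not show that 2151R and 2208L are level at Trp53. The genes were chosen knowing that the 2225L libraries differ at Trp53, so the 2225L values of Trp53 are given as a description with no p-value. Trp53 was nevertheless part of the fit of all genes. It is among the 10 genes in the counts of calls for 2225L, in which it was not called, and in the plot of differences between models. Those entries cannot serve as a test of Trp53, because the choice of genes used the same values. The mean of 2225L (0.72 ± 1.28, SD, n = 2) lay 0.82 above that of 2208L, a difference that was -0.09 without the CP library and 1.72 without the ROSEN library. Against 2151R the difference in means was 0.53, with -0.38 and 1.44 without the same libraries. RNA from a null allele may still be made, so these Trp53 values do not check the genotype label.

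The pair of 2225L libraries differed at Trp53 by 1.82 log2 units (CP minus ROSEN), a difference that the choice of these genes already used and that is given as a description. There is 1 library on each side, so no test was possible. The CP library is the sample titled T-Vivo, so prefix, that title mark and sample cannot be told apart. Among all genes, 6.64% had a CP minus ROSEN difference at least as high. The neighbourhood of Trp53 was looked at with the 10 measured genes on each side of it, which reached 254.1 kb before and 102.2 kb after its start. Of these 20 genes, 8 were higher in the CP library by 1 log2 unit or more and 0 were lower by as much, beside 15.5% and 18.6% of all genes.

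The CP minus ROSEN median of the 20 neighbours was 0.31, beside -0.08 over all genes, and 13 of the 20 were higher in the CP library at all, beside 46.0% of all genes. The nearest gene before Trp53, Wrap53, which overlaps it in the opposite direction and helps assemble telomerase, differed by -0.20. Next to it, Efnb3, an ephrin ligand, differed by 1.0. After Trp53, Atp1b2, a subunit of the sodium pump, differed by 1.11 and Sat2, a polyamine acetyltransferase family gene, by -0.23. Genes higher in the CP library by 1 log2 unit or more were thus interleaved with genes that differed by less, on both sides of Trp53. Sox15 (2.22) and Kcnab3 (1.91) exceeded it and were named after their values were seen. At Trp53 the CP library lay above every 2208L sample.

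**Figure D3:**
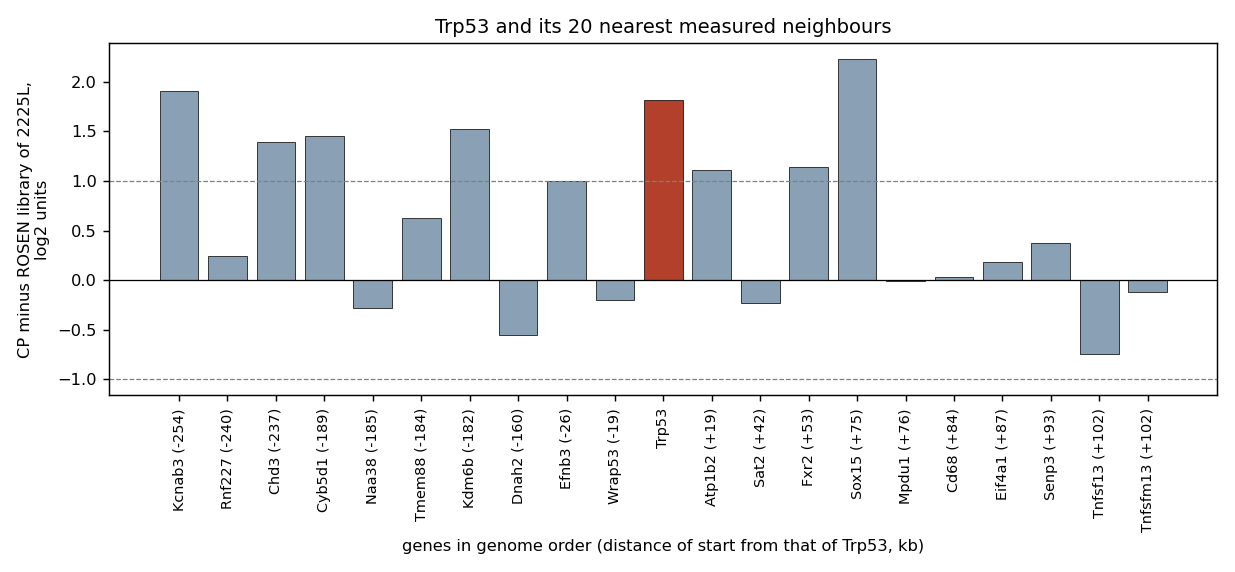
CP minus ROSEN difference of the 2 libraries of 2225L (vertical axis, log2 units) for Trp53 and the 20 nearest measured genes in genome order (horizontal axis, with the distance of each start from that of Trp53 in kb), with dashed lines at 1 and -1. Trp53 (1.82) stands among 8 neighbours at 1 or more and 12 between the lines.

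Over the other genes, the 2225L libraries moved apart in both directions. Of the 10 genes, 4 differed by more than 1 log2 unit, beside 34.1% of all genes. Cdkn1a was higher in the CP library, at -0.25 against -2.32, a difference of 2.07 that 5.16% of all genes reached. Bbc3 was lower, at -0.36 against 1.49, and Phlda3 was lower, at -0.01 against 1.20, so their differences were -1.86 and -1.21. Mdm2 differed by 0.88, Sesn2 by 0.61, Trp53inp1 by 0.39, Ccng1 by 0.01, Zmat3 by -0.26 and Bax by -0.55. The library with more Trp53 RNA thus had more Cdkn1a and less Bbc3 and Phlda3. The 2 libraries also differed in host tissue markers: 3 of 4 adipocyte markers and 4 of 6 leukocyte markers were lower in the CP library by over 1, and 4 of 5 skeletal muscle and 2 of 4 endothelial markers higher. Their part in these differences was not tested.

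**Figure D4:**
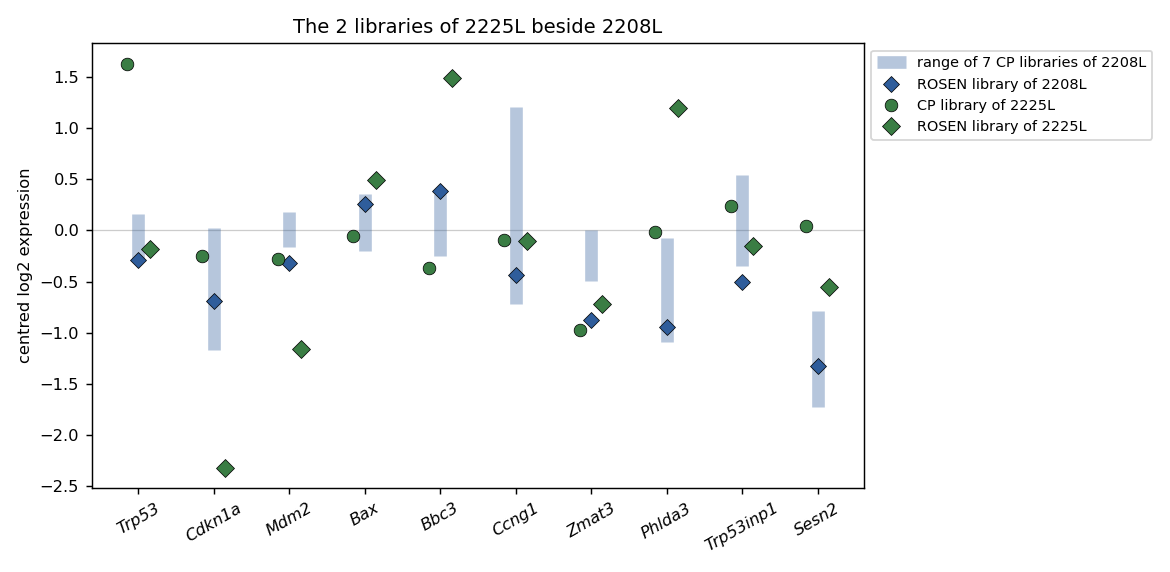
Centred log2 expression (vertical axis) of the 10 genes (horizontal axis) in the CP and ROSEN libraries of 2225L, beside the ROSEN library of 2208L and a bar for the range of the 7 CP libraries of 2208L. The ROSEN library of 2225L lies outside the 2208L samples for Cdkn1a, Mdm2, Bax, Bbc3, Phlda3 and Sesn2, and the CP library lies outside them for Trp53, Bbc3, Zmat3, Phlda3 and Sesn2. The share of all genes outside the 2208L samples is not given, so these lists only describe the plot.

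Mdm2, the ubiquitin ligase that limits p53, was highest in 2151R and lowest in 2225L. Its values were 0.58, 0.37, 0.35 and 0.51 in 2151R, and -0.28 (CP) and -1.16 (ROSEN) in 2225L. In 2208L they ran from -0.32 to 0.18 with a median of -0.06, and T11 had -0.08. No 2208L or 2225L sample reached the lowest of 2151R, whereas the CP library of 2225L lay within 2208L.

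The Mdm2 difference between 2151R and 2208L was 0.48 (SE 0.16, limma adjusted p = 0.0245). It was similar in size but not called when 2151R and 2208L were restricted to titles with NT, nt or PBS (0.42, limma adjusted p = 0.191), without replicate 1 or 4 of 2151R (0.44 and 0.47, limma adjusted p = 0.0764 and 0.0655) or without the 3 samples highest in skeletal muscle markers (0.48, limma adjusted p = 0.0875). The Mdm2 difference between 2225L and 2208L (-0.69, SE 0.21, limma adjusted p = 0.0224) rested on the ROSEN library, without which it was -0.25. With all samples kept, it was not called after quantile normalization (-0.47, limma adjusted p = 0.0641). Nor was it called when 2225L and 2208L were fitted alone (limma adjusted p = 0.0588). Against 2151R it was -1.17 (SE 0.23, limma adjusted p = 0.000981), and -0.73 and still called without the ROSEN library.

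Cdkn1a encodes p21, the inhibitor of cyclin-dependent kinases through which p53 halts the cell cycle. Its values were 0.37, 0.62, 0.05 and 0.14 in 2151R, and -0.20 in T11. In 2208L they ran from -1.17 to 0.02 with a median of -0.49. The Cdkn1a values of 2151R lay above all of 2208L, although the gap between the closest samples was small. The difference of 0.74 (SE 0.33) was not called in the fit of all samples (limma adjusted p = 0.0771), in which the wide spread of the 2225L pair counts. It was called when only these 2 models were fitted (limma adjusted p = 0.0132).

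In 2225L, Cdkn1a was -0.25 (CP) and -2.32 (ROSEN), the latter the lowest of all 15 samples. The difference of 2225L from 2151R was -1.58 (SE 0.46, limma adjusted p = 0.0128). It was not called when 2225L and 2151R were fitted alone (limma adjusted p = 0.0627) or with the prefix covariate (-1.115, limma adjusted p = 0.0593). Nor was it called with 2151R and 2208L restricted to titles with NT, nt or PBS (-1.38, limma adjusted p = 0.0922). Without the ROSEN library it was -0.54 and not called (limma adjusted p = 0.316), and without the CP library it was -2.62. Against 2208L the Cdkn1a difference of -0.84 was not called (limma adjusted p = 0.149) and was 0.20 without the ROSEN library.

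Ccng1, cyclin G1, which takes part in the Mdm2 loop, was called in no comparison of models. Its values were -0.06, 0.16, 0.13 and -0.24 in 2151R, -0.10 and -0.11 in 2225L and 0.32 in T11. In 2208L they ran from -0.72 to 1.21 with a median of -0.02, the widest spread of the 10 genes within that model (SD 0.69, n = 8). Ccng1 was high in replicates 6 and 8 of 2208L, with 1.21 and 0.81, and these were the 2 samples with the highest mean of the skeletal muscle markers, 9.19 and 8.67. The part of muscle RNA in these Ccng1 values was not tested.

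Bax, whose protein opens pores in the outer mitochondrial membrane, varied least of the 10 genes. Its SD over the 15 samples was 0.25, and 3.46% of all genes had a smaller one. The values were -0.17, -0.03, -0.04 and -0.06 in 2151R, -0.06 and 0.50 in 2225L and -0.40 in T11, the lowest sample. In 2208L they ran from -0.20 to 0.36 with a median of 0.08. Bax differed between 2151R and 2208L by -0.15 (SE 0.15, 95% interval -0.48 to 0.18) and was called in no comparison of models.

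Bbc3 encodes PUMA, a protein that blocks the survival members of the Bcl-2 family, and had the largest SD of the 10 genes (0.89). In 2151R it was -1.36, -1.70, -1.57 and -1.27, below every other sample. In 2208L Bbc3 ran from -0.25 to 0.39 with a median of 0.30, and T11 had -0.26. The 2225L libraries had -0.36 (CP) and 1.49 (ROSEN). The difference of 2151R from 2208L was -1.65 (SE 0.27, limma adjusted p = 0.000211). The difference of 2225L from 2151R was 2.04 (SE 0.38, limma adjusted p = 0.000697), and 1.11 and still called without the ROSEN library.

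Trp53inp1, a nuclear stress protein that promotes p53-dependent death, was, like Bbc3, lowest in 2151R. It was -0.93, -0.93, -1.64 and -1.12 in 2151R, below all other samples, with 0.40 in T11. In 2225L Trp53inp1 was 0.24 (CP) and -0.16 (ROSEN), and in 2208L it ran from -0.50 to 0.54 with a median of 0.16. The difference of 2151R from 2208L was -1.26 (SE 0.22, limma adjusted p = 0.000428). The difference of 2225L from 2151R was 1.20 (SE 0.32, limma adjusted p = 0.00736), and without the CP library it was 1.0 and not called (limma adjusted p = 0.0632).

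Zmat3, a zinc finger protein that binds RNA, ran the other way, high in 2151R. Its values were 1.06, 0.45, 0.67 and 0.95 in 2151R and 1.10 in T11. In 2208L Zmat3 ran from -0.88 to 0.00 with a median of -0.25, and the 2225L libraries had -0.98 (CP) and -0.72 (ROSEN). Every sample of 2151R and T11 lay above every sample of the other 2 models. The difference of 2151R from 2208L was 1.09 (SE 0.18, limma adjusted p = 0.000187), and that of 2225L from 2151R was -1.63 (SE 0.25, limma adjusted p = 0.000139). Between 2225L and 2208L it was -0.54 (limma adjusted p = 0.0863). Without the ROSEN library of 2208L, which was low at -0.88, the Zmat3 difference was -0.62 and called (limma adjusted p = 0.0245).

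Phlda3, which competes with the kinase Akt for membrane lipids, was low in 2151R and high in 2225L. It was -1.34, -1.03, -1.35 and -1.48 in 2151R, -0.01 (CP) and 1.20 (ROSEN) in 2225L and 0.10 in T11. In 2208L Phlda3 ran from -1.09 to -0.07 with a median of -0.78. Both 2225L libraries lay above all samples of 2208L, and 1 sample of 2151R reached into the range of 2208L. The difference of 2225L from 2208L was 1.24 (SE 0.33, limma adjusted p = 0.0117), but 0.64 and not called without the ROSEN library (limma adjusted p = 0.247). Phlda3 differed between 2225L and 2151R by 1.89 (SE 0.36, limma adjusted p = 0.000884).

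The Phlda3 difference of -0.65 (SE 0.26) between 2151R and 2208L missed the threshold (limma adjusted p = 0.0523). It was called when only these 2 models were fitted (limma adjusted p = 0.0253), and without replicate 1, 3 or 7 of 2208L (-0.69 to -0.71, limma adjusted p = 0.0417 to 0.0499).

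Sesn2, a sestrin that restrains the growth kinase complex mTORC1, was lowest in 2208L. It was 0.23, 0.61, 0.04 and 0.14 in 2151R, 0.05 (CP) and -0.56 (ROSEN) in 2225L and -0.27 in T11. In 2208L Sesn2 ran from -1.73 to -0.79 with a median of -1.23, so that each sample of the other 3 models lay above all 8. The difference of 2151R from 2208L was 1.51 (SE 0.20, limma adjusted p = 4.28e-05). The difference of 2225L from 2208L was 0.999 (SE 0.26, limma adjusted p = 0.011), and without the CP library it was 0.70 and not called (limma adjusted p = 0.138). Between 2225L and 2151R it was -0.51 (limma adjusted p = 0.162).

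T11 has 1 sample, so its differences have no replicate check and no test. Against the mean of 2208L, 1 of the 10 genes was past 1 log2 unit, Zmat3 (1.41), beside 38.5% of all genes, and Sesn2 lay just inside at 0.98. Against the mean of 2151R, 3 were past it, Trp53inp1 (1.55), Phlda3 (1.40) and Bbc3 (1.21), beside 25.5% of all genes. T11 therefore had the high Zmat3 of 2151R without its low Bbc3, Phlda3 and Trp53inp1. For these 3 genes the T11 sample lay above all 4 samples of 2151R.

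Within 2208L, the 4 PBS and 3 3day nt samples are the only titled subsets with replicates. Each subset has its own range of library numbers. The titles also start with DH for all PBS and with KM for all 3day nt samples, letters whose meaning is not stated. The effects of subset, library range and these title letters therefore cannot be separated. Trp53inp1 and Sesn2 were higher in PBS and Bax was lower, and these 3 of 10 calls compare with 34% of all genes. Trp53inp1 was 0.40, 0.54, 0.51 and 0.28 in PBS and -0.08, 0.05 and -0.35 in 3day nt, a difference of 0.56 (SE 0.14, limma adjusted p = 0.0217). Sesn2 was -0.93, -1.08, -1.15 and -0.79 in PBS and -1.31, -1.73 and -1.73 in 3day nt, a difference of 0.60 (SE 0.16, limma adjusted p = 0.0276). Bax was -0.11, -0.20, 0.01 and -0.20 in PBS and 0.36, 0.15 and 0.36 in 3day nt, a difference of -0.41 (SE 0.11, limma adjusted p = 0.0325). The 2 subsets did not overlap for these 3 genes. They were picked by their calls in the same samples, so this adds no evidence. The share of all genes without overlap is not given for this comparison.

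The subset calls changed when samples were left out, and none of the 3 was kept without replicates 6 and 8, the 3day nt samples high in muscle markers. Without them the Trp53inp1 difference was 0.39, that of Sesn2 0.74 and that of Bax -0.27, and 98 genes were called in all, with 1 sample left in the 3day nt arm. No member was called either without replicate 2, 3 or 8 alone. The mean of the skeletal muscle markers ran from -4.69 to 1.97 in PBS and from 0.44 to 9.19 in 3day nt, and its part in these differences was not tested. Ccng1, with a difference of -0.63 (limma adjusted p = 0.314), was called only without replicate 7 (-1.20, limma adjusted p = 0.0191).

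The wider p53 pathway was read from 3 lists: 25 other targets, 14 regulators and relatives of p53, and 10 mitosis genes that p53 is known to repress through p21. In 2151R, 7 of the other targets were called higher than in 2208L and 10 lower, beside 26.1% and 22.7% of all genes, with a median difference of -0.36 beside 0.10 for all genes. The largest were the death receptor gene Eda2r (3.60, limma adjusted p = 0.000447) and the DNA polymerase gene Polk (1.86) upward. Downward, the junction gene Perp (-5.80, limma adjusted p = 1.47e-10) and the 14-3-3 gene Sfn (-5.68) differed most, both of which are known as epithelial genes. All 4 samples of 2151R and T11 were low for both, and these samples also had the lowest means of the epithelial markers. Among those markers Krt5 went the other way in 2151R, with a mean of 2.72 beside -2.01 in 2208L. The part of epithelial content in the Perp and Sfn differences was not tested.

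In 2225L, 3 of the 25 were called higher than in 2208L and 8 lower, beside 15.6% and 17.3% of all genes. Higher were the epoxide hydrolase gene Ephx1 (2.33) and Perp (1.13), and lower the death genes Pmaip1 (-2.36) and Fas (-1.34). The low Fas value was that of the CP library, without which the difference was -0.11 (limma adjusted p = 0.846), and the Fas call was also lost without replicate 1, 3, 4, 5 or 6 of 2208L (limma adjusted p = 0.0517 to 0.0603). Perp was 0.80 and not called without that library (limma adjusted p = 0.0999). Between 2225L and 2151R, 8 were higher and 8 lower, beside 22.8% and 25.8% of all genes, led by Perp (6.94), Sfn (6.10), Eda2r (-4.10) and Polk (-2.94). As among the 9 targets, called genes lay on both sides in every comparison of models.

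Among the regulators and relatives, the p53 family members Trp73 and Trp63, which can bind the same motif, differed most. Trp73 was 8.17 and 6.55 in the 2225L libraries, and at most 2.43 in any other sample. Trp63, known in basal epithelium, was 5.55 and 4.08 there and at most 1.53 elsewhere. Against 2208L these were differences of 7.70 (limma adjusted p = 4.23e-07) and 3.82 (limma adjusted p = 1.59e-05), and against 2151R of 5.68 and 5.29. Both genes were thus high in both 2225L libraries, whereas Trp53 was high in 1. In 2208L, replicates 3 and 4 shared 1 Trp73 value (-0.64), and the sources used here do not say what an exactly repeated value stands for.

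Between 2151R and 2208L, 4 of the 14 regulators were called higher, led by Trp73 (2.02) and the acetyltransferase gene Ep300 (1.30), and 2 lower, Trp63 (-1.47) and the ubiquitin ligase gene Rchy1 (-0.44), beside 26.1% and 22.7% of all genes. The Rchy1 call was lost in 9 of the 12 fits that left out 1 sample. Between 2225L and 2208L, 3 were called higher and 0 lower, beside 15.6% and 17.3% of all genes. Between 2225L and 2151R, 2 were higher and 3 lower, beside 22.8% and 25.8%, among them the damage kinase genes Atm (-2.05) and Atr (-1.32). Neither was called without the ROSEN library (-1.39 and -0.61). The Atm call was also lost without replicate 1 or 4 of 2151R (-1.80 and -1.88, limma adjusted p = 0.0766 and 0.0708), with quantile normalization (limma adjusted p = 0.108) and with the library prefix as a covariate (limma adjusted p = 0.101).

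The mitosis genes were called in 1 direction in each comparison, except that 1 was called higher in 2225L than in 2151R without the CP library. In 2151R, 6 of 10 were higher than in 2208L and 0 lower, beside 26.1% and 22.7% of all genes, led by Foxm1 (1.62, limma adjusted p = 4.13e-06), a transcription factor of mitosis, and Bub1 (1.49), a checkpoint kinase gene, and the median was 0.70 beside 0.10 for all genes. In 2225L, 3 were higher than in 2208L, beside 15.6% of all genes, led by Cdc20 (1.14) and Plk1 (0.88), both lost without the ROSEN library (0.50 and 0.75). Against 2151R, 3 were lower in 2225L, beside 25.8% of all genes, with Bub1 (-0.97) and Foxm1 (-0.95) not called without that library (-0.80 and -0.72). Between PBS and 3day nt, 3 other targets were higher and 3 lower, 3 regulators higher and 2 lower, and 0 mitosis genes higher and 1 lower, where 34% of all genes were called. Without replicates 6 and 8 none of them was called.

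**Figure D5:**
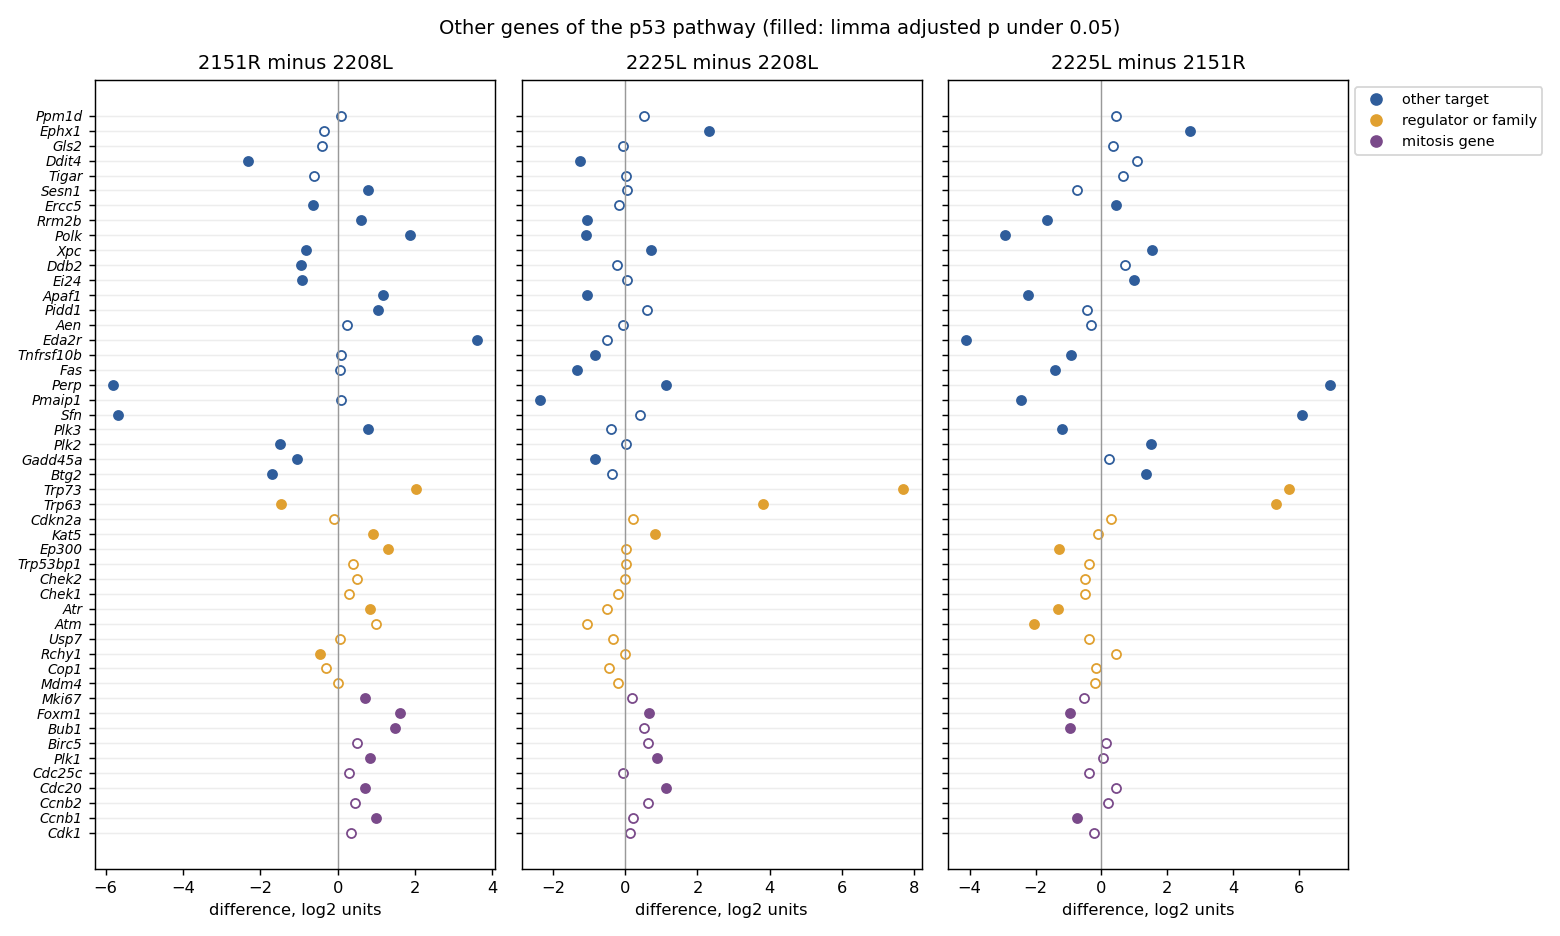
Difference between models (horizontal axis, log2 units, each panel with its own scale) for the 25 other targets, 14 regulators and relatives and 10 mitosis genes of the p53 pathway (vertical axis), with filled points for limma adjusted p under 0.05. Other targets lie on both sides of 0, Perp and Sfn are far below 0 for 2151R against 2208L, and Trp73 and Trp63 are far above 0 for both 2225L comparisons.

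Genes whose pattern over the 15 samples was most like that of Trp53 were Mrpl48-ps (Pearson r = 0.945), Gps2 (r = 0.926) and Rrp1b (r = 0.920). These values rested on the CP library of 2225L, and without it and the ROSEN library of 2208L, the samples farthest from the Trp53 median, they were 0.677, 0.689 and 0.571 over 13 samples. Most like Cdkn1a were Adamtsl4 (r = 0.959), Dusp3 (r = 0.900) and Gm5148 (r = 0.889), with 0.877, 0.761 and 0.803 without the 2 samples farthest from the Cdkn1a median. The samples share models and library sets, so the correlations describe these samples and carry no p-value.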

How the data were processed

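Polyadenylated RNA of 15 tumours was analysed from 1 table. The authors deposited log2 values centred on a median for each gene, per the name of the table. The submitters' processing notes name STAR, Salmon and mm10, with no role or version. The set of samples used for centring, the offset before the logarithm and the scaling between samples are not given in the sources used here. The table has no counts, so depth is unknown.

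The model named in each title set the groups, and replicates were numbered in accession order. All 17271 genes were tested with lmFit and eBayes of limma 3.58.1 under R 4.3.3, with no trend. The models were compared in 1 fit of all 15 samples and the subsets of 2208L in a fit of 7 samples. A gene is called where its adjusted p over all genes (Benjamini-Hochberg) is under 0.05. Where a side has 1 sample, differences past 1 log2 unit were counted with no test. The fit was tested on simulated data with 200 changed genes.

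The 10 genes and all lists were chosen with earlier results of these data known. Named are the 10 genes, the 2 genes of each pathway list with the largest called difference in each direction per model comparison, the 4 nearest neighbours of Trp53, and the 3 genes most correlated with Trp53 and with Cdkn1a. Other scalings, filters, priors, thresholds, sample subsets, a prefix covariate and leaving out each sample were tried. Leaving out replicates 6 and 8 of 2208L together was added after seeing the data. Positions and promoters are from RefSeq, GRCm38.p6.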

Additional observations from a re-analysis of the deposited data

Results flagged for a closer look

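In 81 groups of 4 to 8 samples, formed from the named genes, 7 had a sample whose gap to its nearest neighbour was large for the range of the group by Dixon's 95% limit, where chance flags about 1 in 20 groups. Replicate 5 of 2208L was the lowest of the 4 PBS samples for Mdm2 (-0.124, the others 0.147 to 0.18) and for Ccng1 (-0.72, the others -0.032 to 0). Replicate 2 of 2208L was the highest PBS sample for Ep300 (0.131, the others -0.203 to -0.175) and the lowest for Trp63 (0.0, the others 1.43 to 1.53). Replicate 1 of 2151R was the lowest of its group for Bax (-0.166, the others -0.056 to -0.034) and the highest for Bub1 (1.376, the others 1.107 to 1.118). Replicate 2 of 2151R was the highest of its group for Ephx1 (0.119, the others -1.018 to -0.859).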

How the results depend on the processing

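No paired analysis was possible because no replicate numbers are shared between models in the titles. The counts of called members for 2151R against 2208L and for 2225L against 2151R stayed within 1.5 times of 5 and 6 under the alternatives run. Requiring also a difference of 1 log2 unit left 1 called member for 2225L against 2208L, 0 for PBS against 3day nt, 5151 genes for 2151R against 2208L and 2208 for PBS against 3day nt. Restricting 2151R and 2208L to titles with NT, nt or PBS left 5466 genes called between them. For PBS against 3day nt, leaving out each sample in turn gave 0 to 3 members and 2379 to 6800 genes, and leaving out replicates 6 and 8 together gave 0 members and 98 genes.

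With 0.5 or 2 log2 units as the threshold, 7 or 1 members passed for the CP and ROSEN libraries of 2225L, 3 or 0 for T11 against 2208L and 5 or 0 for T11 against 2151R. For T11 against 2208L, quantile normalization gave 2, and leaving out each 2208L sample gave 1 to 2.

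Differences that changed sign were called on neither side, except where stated, and those of Trp53 in 2225L are given as a description with no p-value. Leaving out each sample in turn, the Ccng1 difference ran from -0.12 to 0.15 for 2151R against 2208L and from -0.22 to 0.0548 for 2225L against 2208L. For 2225L against 2208L it ran from -0.0931 to 1.72 for Trp53, from -1.88 to 0.20 for Cdkn1a, from -0.13 to 0.42 for Bax, from -0.54 to 1.32 for Bbc3 and from -0.26 to 0.13 for Trp53inp1, where the ends are the fits without 1 of the 2225L libraries and the Cdkn1a and Bbc3 ends of largest size were called. Trp53 ran from -0.38 to 1.44 for 2225L against 2151R. For PBS against 3day nt, Trp53 ran from -0.0229 to 0.12 and Cdkn1a from -0.0129 to 0.58. Without the 3 muscle-high samples, Ccng1 became 0.27 for 2151R and 0.22 for 2225L against 2208L. With CP libraries only, Cdkn1a became 0.16, Bax -0.11, Bbc3 -0.51 and Trp53inp1 0.0455 for 2225L against 2208L. With the prefix covariate, Trp53inp1 became 0.15 and Ccng1 0.00868 against 2208L and 0.0678 against 2151R. Without replicates 6 and 8, Ccng1 became 0.50 and Phlda3 0.41 for PBS against 3day nt. The cause was not tested.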
